A study of Mus musculus with 4 samples.

Results

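Peaks of ATF4 pull-down in mouse heart ventricle were examined at 31 genes of cholesterol and fatty acid synthesis, of 21900 protein-coding genes in the RefSeq table of the mouse build GRCm38.p6. The 31 genes were taken by name. They comprise 5 regulators of the SREBP pathway, 17 enzymes of sterol synthesis, 1 sterol transfer protein and 8 enzymes of fatty acid synthesis, elongation and desaturation. All 31 were found in the table under their own symbols. ATF4 is a leucine zipper transcription factor whose translation increases when cells are stressed or short of amino acids, and it binds composite C/EBP-ATF elements in DNA.

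The samples were 2 ATF4 pull-downs and 2 inputs, all from ventricles of mice aged 4 weeks, with no strain, genotype or treatment in the labels. The pull-down was a BioChIP, in which DNA bound by a biotinylated protein is captured on streptavidin beads after formaldehyde crosslinking. The antibody field of the labels reads AAV, with no further explanation, so whether the captured ATF4 was endogenous or delivered by a vector, and in which cells it was made, is not known here. No label ties either pull-down to an animal of its own, and the spread between the replicates may be technical. The inputs were not analysed here. Each pull-down had a peak list of its own, with 78746 peaks in replicate 1 and 88812 in replicate 2, and a further list of 41639 peaks covered the series. Each series-wide peak carries a fold, which is its height over a constant background and not over input, and read depth is unknown. Replicate folds were inferred from the deposited values of each list. The series-wide fold equalled the larger of the replicate folds at all 54 peaks of the synthesis genes that have both. Replicate folds were read by way of the series-wide folds at peaks with identical coordinates. That the series-wide fold equals 1 of them is therefore largely set by how they were made. With 1 group measured there was no contrast to test, so shares of the 31 genes are set beside the same share of all protein-coding genes.

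As a check of the tissue, 5 of 5 cardiomyocyte genes (Myh6, Myl2, Tnnt2, Actc1 and Ryr2) had an end peak, meaning, where no replicate list is named, a peak of the series-wide list that touches the 1 kb on either side of a gene end. Among all protein-coding genes 34.9% had one. Of 5 adipocyte genes 0 had an end peak. In the gene body with 10 kb on either side, 3 of these 5 had a series-wide peak, against 61.1% of all genes. An end peak was counted for 3 of 5 hepatocyte genes, 1 of 4 macrophage genes, 1 of 4 endothelial genes and 2 of 4 fibroblast genes. The hepatocyte genes were Alb (10 in replicate 1 and 19.1 in replicate 2), Apoa1 (10.5 and 19.9) and Ttr (15.5 and 22.6). A peak shows captured chromatin and not that the gene is expressed, and the part of other cell types in the peaks at the synthesis genes was not tested.

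Cells make cholesterol and fatty acids from acetyl-CoA. The sterol branch runs through mevalonate, farnesyl diphosphate, squalene and lanosterol, and the fatty acid branch through malonyl-CoA and the fatty acid synthase, with elongases and desaturases shaping the product. Both are switched on by SREBP transcription factors, encoded by Srebf1 and Srebf2. SREBP precursors sit in the endoplasmic reticulum bound to Scap. When sterols are plentiful, Insig proteins hold Scap there, and when sterols run low Scap carries SREBP to the Golgi, where it is cut and released to the nucleus. The heart takes up much of its fatty acid as fuel and makes comparatively little.

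Promoter windows were read for the genes whose start carried the highest peaks over the window, and are shown here because these are the bases under those peaks. Each window runs from 250 bases before to 50 after a RefSeq gene start (GRCm38.p6), 5′ to 3′ on the gene's strand. Capitals mark matches on either strand to the C/EBP-ATF element (TGATGNAA), the cyclic AMP response element (TGACGTCA), the E-box (CACGTG), the sterol element (TCACNCCAC) and the CCAAT box (CCAAT). By the series-wide fold of the overlapping peak these were the windows of Mvk (chr5:114444019-114444318, plus strand), Elovl5 (chr9:77917115-77917414, plus strand), Mvd (chr8:122443373-122443672, minus strand) and Cyp51 (chr5:4104648-4104947, minus strand). Those of Hmgcs1 (chr13:119690101-119690400, plus strand) and Insig2 (chr1:121327975-121328274, minus strand) were added after their values were seen, since Hmgcs1 held the single sterol element match and Insig2 the single C/EBP-ATF match inside a peak.
Mvk: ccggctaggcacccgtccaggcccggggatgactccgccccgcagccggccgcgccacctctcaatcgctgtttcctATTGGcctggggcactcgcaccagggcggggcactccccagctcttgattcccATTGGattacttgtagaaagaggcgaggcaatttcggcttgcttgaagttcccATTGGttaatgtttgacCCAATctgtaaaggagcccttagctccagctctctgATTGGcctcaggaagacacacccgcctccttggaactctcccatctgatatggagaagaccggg
Elovl5: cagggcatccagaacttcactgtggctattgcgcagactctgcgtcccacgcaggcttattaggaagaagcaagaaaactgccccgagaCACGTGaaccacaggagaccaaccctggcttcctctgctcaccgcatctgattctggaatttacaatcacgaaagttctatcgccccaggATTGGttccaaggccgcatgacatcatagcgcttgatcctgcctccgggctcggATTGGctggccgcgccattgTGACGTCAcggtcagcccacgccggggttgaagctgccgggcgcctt
Mvd: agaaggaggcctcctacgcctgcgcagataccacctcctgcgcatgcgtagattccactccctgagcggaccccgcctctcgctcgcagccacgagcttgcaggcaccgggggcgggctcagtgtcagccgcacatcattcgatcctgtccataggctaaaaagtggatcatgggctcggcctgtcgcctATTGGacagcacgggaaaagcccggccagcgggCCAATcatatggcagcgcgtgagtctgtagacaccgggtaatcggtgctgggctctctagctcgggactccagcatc
Cyp51: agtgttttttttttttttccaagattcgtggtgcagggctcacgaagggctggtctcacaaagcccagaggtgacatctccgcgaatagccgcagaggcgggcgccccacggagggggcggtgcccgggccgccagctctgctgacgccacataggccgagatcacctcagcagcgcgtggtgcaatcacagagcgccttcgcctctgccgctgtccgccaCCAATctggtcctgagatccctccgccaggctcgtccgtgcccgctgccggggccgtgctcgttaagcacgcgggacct
Hmgcs1: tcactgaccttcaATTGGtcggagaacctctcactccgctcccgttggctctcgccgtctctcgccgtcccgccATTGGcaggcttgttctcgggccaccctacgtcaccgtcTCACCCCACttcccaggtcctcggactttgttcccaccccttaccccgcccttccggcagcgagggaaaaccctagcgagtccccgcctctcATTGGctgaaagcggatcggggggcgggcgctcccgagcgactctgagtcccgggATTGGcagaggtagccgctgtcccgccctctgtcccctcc
Insig2: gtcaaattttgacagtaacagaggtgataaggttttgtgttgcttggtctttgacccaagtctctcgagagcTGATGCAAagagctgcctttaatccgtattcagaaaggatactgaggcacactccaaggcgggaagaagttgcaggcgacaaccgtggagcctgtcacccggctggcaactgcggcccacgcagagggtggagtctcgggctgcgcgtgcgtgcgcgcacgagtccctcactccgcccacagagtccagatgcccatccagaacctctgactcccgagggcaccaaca

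Of the 31 genes, 16 had an end peak (51.6%), against 34.9% of all protein-coding genes. In the gene body with 10 kb on either side, 25 of the 31 had a peak (80.6%), against 61.1% of all genes. The median gene length was 17.9 kb in the synthesis genes and 17.1 kb in all genes. Per 100 kb of that wide window, the 31 genes had 3.33 peaks and all genes 2.58. This density depends on total window length, which was 1.65 Mb with 55 peaks for the 31 genes. For all 21900 genes it was 1489 Mb with 38428 peaks, a peak counted once for each gene. Peaks per gene were thus close, and the mean window was shorter in the synthesis genes. The highest end peak of the 16 genes had a median fold of 14.1 (range 8.50 to 27.0), and that of the 7644 genes of the whole table with an end peak had a median of 13.3. The synthesis genes therefore carried end peaks in a larger share than all genes, at heights whose medians were close. With the 20% of peaks of highest fold alone, which began at 21.5-fold, 1 of the 31 genes had an end peak (3.23%). Among all genes 5.66% had one, and the count of 1 is too small to set the shares apart. That gene was Srebf2, through the peak of 27.0-fold behind its far end and not its start. In the wide window 6 of the 31 had a peak among that 20% (19.4%), against 21.0% of all genes. The larger share was thus not seen for these peaks, and this count too is small.

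Strand was given for 24 of the 31 genes, which let the start be told from the far end. Of those 24, 14 had an end peak at the gene start (58.3%), against 32.9% of the 17492 genes with a strand. At the far end 2 had one (8.33%), against 5.93%. Of the 14 start peaks, 8 had their summit within 100 bp of the annotated start, and the median distance was 73.5 bp. The end peaks were thus mostly peaks over the start.

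**Figure D1:**
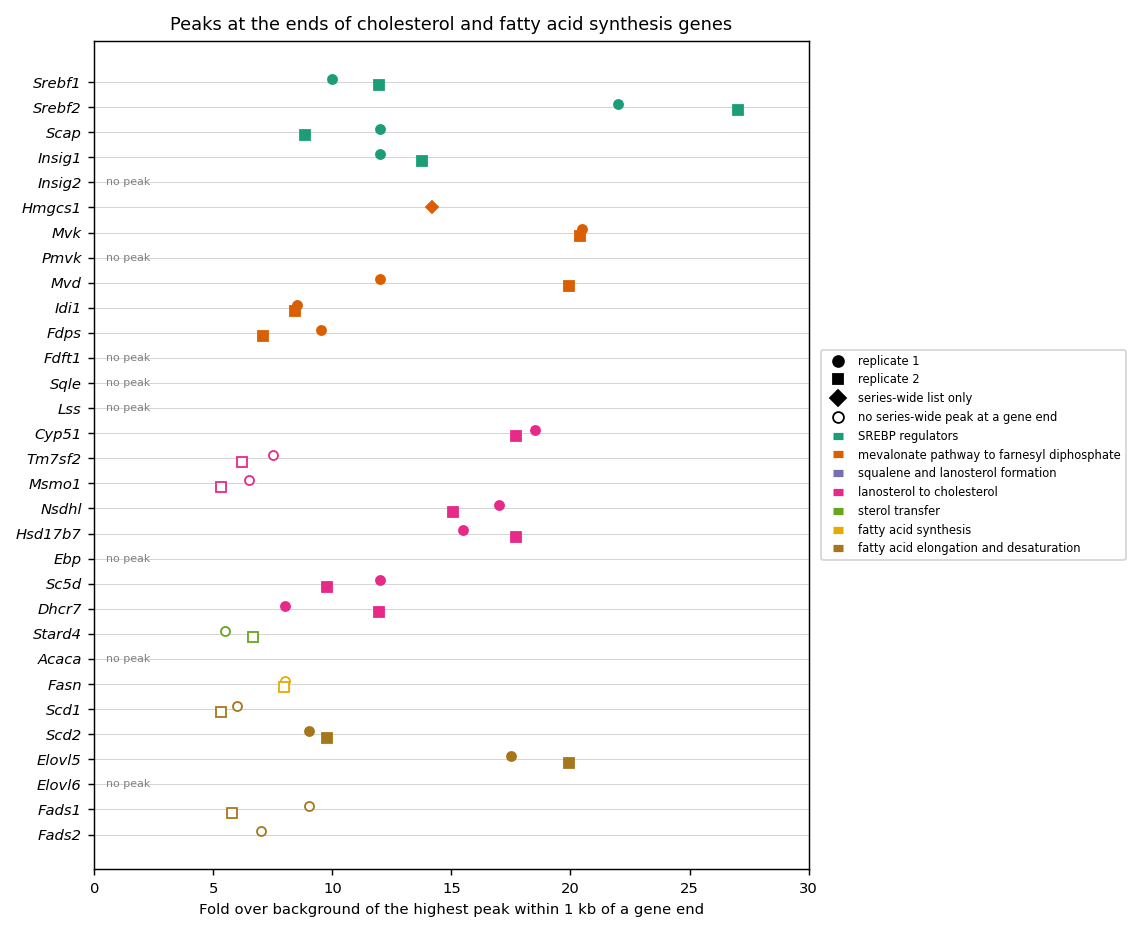
Fold over background (x axis) of the highest peak within 1 kb of a gene end for each of the 31 genes (rows), as a circle for replicate 1 and a square for replicate 2, with filled symbols where the series-wide list also has an end peak and a diamond for Hmgcs1, which has a series-wide value alone. Srebf2 lies farthest right at 22.0 and 27.0, most filled symbols lie between 7 and 21, and 8 genes have no peak there in any list.

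The 5 regulators all had at least 1 series-wide peak, and 4 of them had one at a gene end, beside shares of 61.1% and 34.9% of all genes. Their 14 peaks amounted to 5.18 per 100 kb of gene body and flanks, against 2.58 for all genes. Peaks lay both at starts and far inside or behind the genes.

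Srebf2, which encodes SREBP-2, the form that mainly drives sterol genes, had its highest peak inside the gene at chr15:82186107-82186718. It reached 30.5-fold in replicate 1 and 32.4-fold in replicate 2 (31.4 ± 1.31, SD, n = 2) and lay 39.1 kb from the start. A second strong peak at chr15:82206150-82206859 lay just behind the far end, over the neighbour Shisa8, with folds of 22.0 and 27.0 (24.5 ± 3.56, SD, n = 2). The start itself carried a low peak with folds of 8.50 and 8.87, its summit 33 bp from the annotated start. The start peak was thus the lowest of these 3 in each replicate. A further inside peak was low, at 10.5 and 7.98.

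Srebf1 encodes SREBP-1, whose isoforms arise from alternative starts and mainly drive fatty acid genes. It had 5 series-wide peaks, and all of them were modest. The peak at the outermost start (chr11:60222807-60223298) had folds of 10 and 9.75, with its summit 1002 bp inside the gene. A peak over an internal annotated start (chr11:60220311-60220963) had folds of 11.0 and 7.54. The highest, at chr11:60209233-60209528, lay 1026 bp from another annotated start and had folds of 17.5 and 13.3 (15.4 ± 2.97, SD, n = 2). A peak of 17.0 and 11.5, about 9 kb upstream, lay within the neighbour Tom1l2. The peak at the far end, with folds of 10 and 12.0, was also within 1 kb of an end of Rai1. At 4 of these 5 peaks replicate 1 was the higher of the pair, by more than a step of the fold scale at 3 of them.

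Scap, the escort protein, had a start peak with its summit 43 bp from the start and folds of 12.0 and 8.87, and an inside peak at 7.50 and 9.75. Insig1, which retains Scap, had a wide peak over its start (1683 bp, chr5:28070619-28072301) with folds of 12.0 and 13.7 (12.9 ± 1.23, SD, n = 2), and a lower one 5.40 kb upstream at 9.00 and 9.75. Insig2, its paralog, had no peak at its outermost ends in any list. Its single peak (chr1:121327809-121328332) covered an internal annotated start 4.57 kb into the gene, with folds of 9.50 and 10.2. The window at that start is printed above, and its C/EBP-ATF match TGATGCAA lay 107 bp from the summit.

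Of the 6 genes of the mevalonate pathway, 5 had a series-wide end peak and all 6 had a peak in the wide window, where all genes stood at 34.9% and 61.1%. Mvk, mevalonate kinase, had the highest start peak of the 31 genes in the series-wide list, with folds of 20.5 and 20.4 (20.4 ± 0.0785, SD, n = 2) at chr5:114443755-114444654. Its summit lay 38 bp from the start. The same peak was within 1 kb of an end of Mmab, a cobalamin enzyme gene next to it, so it cannot be assigned to either gene from its position. The window of Mvk printed above holds 5 CCAAT boxes and no match to the C/EBP-ATF or cyclic AMP response elements.

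Mvd, the decarboxylase that makes isopentenyl diphosphate, had a wide start peak (1548 bp) with folds of 12.0 in replicate 1 and 19.9 in replicate 2 (16.0 ± 5.62, SD, n = 2). Both of its other peaks were higher. They lay 7.86 and 9.12 kb upstream, at chr8:122451047-122451777 with folds of 32.0 and 29.3 (30.6 ± 1.94, SD, n = 2), and at chr8:122452139-122452722 with folds of 22.5 and 26.2 (24.3 ± 2.58, SD, n = 2). Neither was within 1 kb of the end of another protein-coding gene.

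Hmgcs1, the synthase that opens the pathway, had a start peak of 14.2-fold in the series-wide list (chr13:119689944-119690533), with its summit 193 bp from the start. It has no replicate value, because the replicate lists stop at 114 Mb of chromosome 13, before this gene, while the series-wide list runs to 120 Mb. Idi1, the isomerase that makes the second isoprenoid building block, had a low start peak at 8.50 and 8.42. Fdps, farnesyl diphosphate synthase, had a low gene-end peak at 9.50 and 7.09, its summit 80 bp from the end. Pmvk, phosphomevalonate kinase, had no end peak in any list and a single peak over an internal annotated start, with folds of 8.00 and 8.87. Among the mevalonate genes, Mvk, Mvd and Hmgcs1 thus had the higher start peaks and Idi1, Fdps and Pmvk peaks under 10-fold in both replicates.

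The next 3 enzymes had the fewest peaks. Fdft1, squalene synthase, had 1 series-wide peak, inside the gene at 12.0 and 11.5. Sqle, the monooxygenase that acts on squalene and is a known control point of sterol synthesis, had no series-wide peak and none in replicate 1, while replicate 2 listed 2 in the wide window, up to 7.09-fold. Lss, lanosterol synthase, had no peak in any list in either window. None of the 3 had an end peak in any list.

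Of the 8 genes that turn lanosterol into cholesterol, 5 had a series-wide end peak, all over the start, and 7 had one in both replicate lists, where all genes stood at 34.9% and 45.2%. Cyp51, the lanosterol demethylase, had a start peak at chr5:4104277-4104915 with folds of 18.5 and 17.7 (18.1 ± 0.545, SD, n = 2) and a summit 30 bp from the start. It had a peak of about the same height behind the gene within the neighbour Akap9, at 20.0 and 19.5, and a low one inside at 7.0 and 9.75. In the printed window of Cyp51 the CCAAT box lay 1 bp from the summit and the core of the cyclic AMP response element (TGACG, in small letters there) 74 bp from it.

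Hsd17b7, a reductase of sterol ketones, had a start peak at 15.5 and 17.7 (16.6 ± 1.58, SD, n = 2). Nsdhl, the dehydrogenase that removes methyl groups, had a start peak at 17.0 and 15.1 (16.0 ± 1.36, SD, n = 2) that was also within 1 kb of an end of Cetn2, and an inside peak at 17.0 and 17.7. Sc5d, a sterol desaturase, had a start peak at 12.0 and 9.75. Dhcr7, the reductase of the last step, had a start peak at 8.00 and 12.0 (9.98 ± 2.81, SD, n = 2) that was also within 1 kb of an end of Nadsyn1. Hsd17b7 and Nsdhl changed order between replicates, and Cyp51 was level with Hsd17b7 in replicate 2. All 3 genes stood above Sc5d and Dhcr7 in each replicate.

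Tm7sf2, a sterol reductase, had an end peak in both replicate lists (7.50 and 6.21) that the series-wide list lacks. Its 3 series-wide peaks were all in the flanks, and all lay within 1 kb of ends of other genes. The highest of them, at chr19:6060972-6061748 over Znhit2, had folds of 28.0 and 35.5 (31.7 ± 5.27, SD, n = 2). Msmo1, a methylsterol monooxygenase, had an end peak in the replicate lists alone (6.50 and 5.32), and Ebp, the sterol isomerase, had no peak in any list. Stard4, a sterol transfer protein, had no series-wide peak and an end peak of 5.50 and 6.65 in the replicate lists.

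The series-wide peaks of the fatty acid enzymes lay mostly away from gene ends. Of the 21 at these 8 enzymes, 2 were at gene ends and 19 lay inside the genes or in the flanks. Of the 20 at the 17 sterol enzymes, 10 were at gene ends. The split of peaks between ends and elsewhere was not counted for all genes, so these counts have no background beside them. In longer genes the wide window also holds more bases away from the ends. By gene, 2 of 8 fatty acid enzymes had an end peak (25%) and 10 of 17 sterol enzymes did (58.8%), with all genes at 34.9%. In both replicate lists the shares were close, with 5 of 8 fatty acid enzymes (62.5%) and 11 of 17 sterol enzymes (64.7%), and all genes at 45.2%. The difference between these small groups was not tested. The fatty acid enzymes were longer, with a median of 29.0 kb, and the sterol enzymes had a median of 16.1 kb. Their peak density was similar, at 2.98 per 100 kb in fatty acid enzymes and 3.11 in sterol enzymes.

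**Figure D2:**
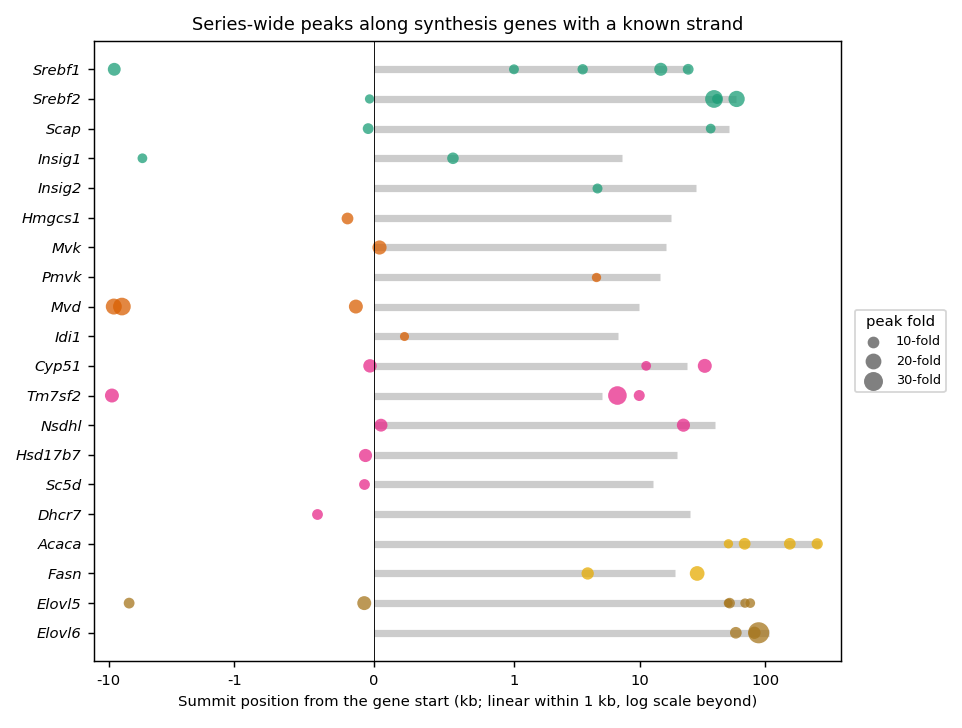
Summit position from the gene start in kb (x axis, linear within 1 kb and log scale beyond) of each peak of the series-wide list at the 20 genes with a known strand and a peak (rows), with gene bodies as grey bars, circle area proportional to fold and colour by pathway role as in the plot of end peaks. Start peaks line up at 0 for most sterol genes, while the peaks of Acaca, Fasn and Elovl6 lie kilobases inside or beyond the gene, and the largest circle is the Elovl6 peak at 88.6 kb.

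Acaca, the acetyl-CoA carboxylase that commits carbon to fatty acids, had 4 peaks inside its body of 272 kb and none at its ends in any list. They lay 50.9, 68.5, 157 and 259 kb from the start of the gene model. The annotated start with a promoter window lies inside that model, between the first and second of these peaks. It was 14879 bp from the summit of the first and 2742 bp from that of the second. The highest in replicate 1 had folds of 14.0 and 11.1 and the highest in replicate 2 had 9.00 and 14.2, so the replicates ranked them differently. Fasn, fatty acid synthase, had an inside peak 3.87 kb from the start at 12.5 and 15.5 (14.0 ± 2.13, SD, n = 2). A higher one at 19.5 and 22.2 lay 9.50 kb behind the gene, within 1 kb of an end of Dus1l. At its own ends Fasn had peaks of 8.00 and 7.98 in the replicate lists and none in the series-wide list.

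Elovl6, which extends palmitate, had the highest peak of all 31 genes. It lay 88.6 kb inside the gene at chr3:129620562-129621644, with folds of 40.0 and 45.7 (42.8 ± 4.00, SD, n = 2). A further pair inside the gene reached 14.0 and 11.1, and 15.0 and 15.5. The ends of Elovl6 had no peak in any list.

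Elovl5, which extends polyunsaturated fatty acids, had the highest end peak of the fatty acid enzymes, over its start, at 17.5 and 19.9 (18.7 ± 1.73, SD, n = 2; chr9:77916929-77917636), its summit 71 bp from the start. Its 5 other peaks ranged from 7.50 to 12.0 in the replicates. The printed window of Elovl5 is the single one among the 24 genes with a full palindromic cyclic AMP response element, 74 bp from the summit, and it also holds an E-box 85 bp from it.

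Of the stearoyl-CoA desaturases, which make monounsaturated fatty acids, Scd2 had a series-wide peak over a gene end (chr19:44293596-44295033) with folds of 14.0 and 9.75. In replicate 1 that region is split, and the piece within 1 kb of the end reached 9.00. A flank peak of Scd2 at chr19:44314313-44314749 had the widest gap between replicates of all the peaks, with 23.5 in replicate 1 and 12.0 in replicate 2 (17.7 ± 8.16, SD, n = 2). Another flank peak was at 13.5 and 15.5. Scd1 had a flank peak at 15.5 and 19.5, and end peaks of 6.0 and 5.32 in the replicate lists alone. Fads1, a desaturase of polyunsaturated fatty acids, had flank peaks of 8.00 and 11.5, and of 7.50 and 11.1, with end peaks of 9.00 and 5.76 in the replicate lists alone. Its neighbour Fads2 had no series-wide peak, and an end peak in replicate 1 alone, at 7.0.

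**Figure D3:**
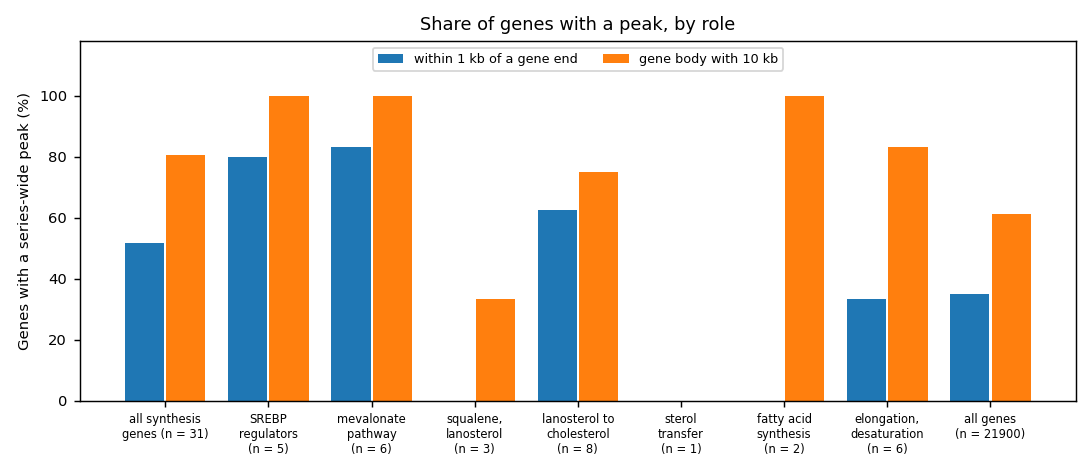
Percentage of genes (y axis) with an end peak (blue) and with a series-wide peak in the gene body and 10 kb of flank (orange), for the 31 synthesis genes, for each pathway role with its number of genes, and for all 21900 protein-coding genes. The end bars reach 80% in the regulators and 83.3% in the mevalonate pathway, and are 0 in squalene and lanosterol formation, sterol transfer and fatty acid synthesis, against 34.9% in all genes.

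Of the 55 series-wide peaks at the 31 genes, 37 lay inside genes or in flanks (67.3%) and 18 at gene ends, a split not counted for all genes. Of the 10 peaks that reached 20-fold in the series-wide list, 8 lay inside genes or in flanks, close to that share. They were the peaks named above at Srebf2, Mvd, Cyp51, Tm7sf2, Fasn, Scd2 and Elovl6. The pair at gene ends was that of Mvk and the far end of Srebf2. In both replicates 7 of the 10 reached 20-fold, and those of Cyp51, Fasn and Scd2 did so in 1 replicate. By class, the 2 far end peaks had a median fold of 19.5, the 17 flank peaks 17.0, the 14 start peaks 14.0, the 16 inside peaks 13.4, the 2 at gene ends without a known strand 11.8 and the 4 at internal annotated starts 10.6. An end peak that was not also within 1 kb of the end of another gene was held by 13 of the 31 genes (41.9%), against 24.8% of all genes.

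The replicates were compared at these peaks, which the authors describe as IDR merged, a step that keeps peaks found alike in both replicates, so likeness there is partly set by how the list was made. Of the 55 peaks, 54 overlapped a peak in both replicate lists, and the exception was Hmgcs1. Replicate 2 was higher at 33 and replicate 1 at 21, with a median of 12.0 in each. The larger value exceeded the smaller by a median factor of 1.18 and at most by 1.96, at Scd2. The replicate lists on their own gave more end peaks, with 22 of 31 genes in replicate 1 (71.0%, against 48.2% of all genes) and 21 in replicate 2 (67.7%, against 50.2%). Both lists held one for 21 genes, against 45.2% of all genes. The replicate lists end before the series-wide list on chromosomes 13 to 19, X and Y. These shares therefore include genes beyond the reach of the replicate lists, Hmgcs1 among the 31. The 6 genes among these without a series-wide end peak were Tm7sf2, Msmo1, Stard4, Fasn, Scd1 and Fads1, and none of their end peaks passed 9.00-fold.

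**Figure D4:**
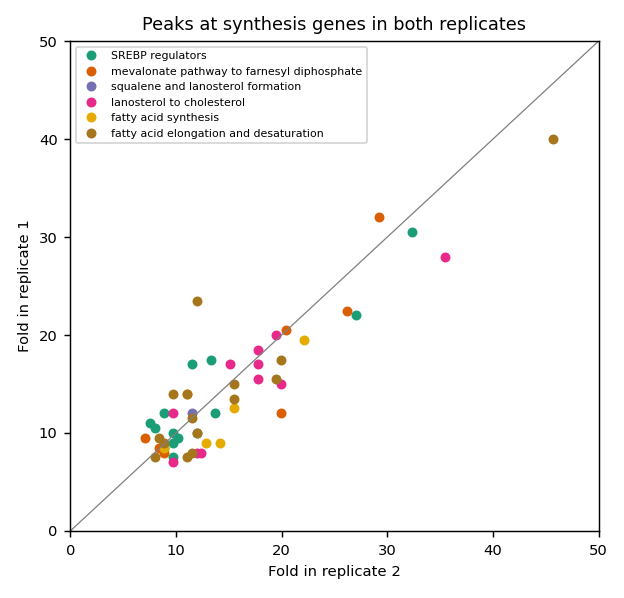
Fold over background in replicate 1 (y axis) against replicate 2 (x axis) of the 54 series-wide peaks at the 31 genes with a peak in both replicates, coloured by pathway role, with the line of equal values. Most points lie near the line, replicate 2 is higher at 33 of them, and the point farthest above it is the Scd2 flank peak at 23.5 against 12.0.

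Promoter windows of 300 bases were given for 24 of the 31 genes, some with several starts, 32 windows in all. Each of 7 motifs was searched on both strands. The E-box CACGTG was in 21.9% of the 32 windows, against 7.15% of the 32851 windows of the whole promoter table, which also covers genes that code for no protein. It was found in Dhcr7, Elovl5, Hsd17b7, Insig1, Sc5d and Scap, and all 6 sites lay inside series-wide peaks. Of the 32 windows, 20 overlapped a peak. Matches to other motifs lay inside peaks as well, with 10 of 11 for TGACG, 32 of 46 for the GC box GGGCGG and 26 of 44 for CCAAT. The share of E-boxes inside peaks was not counted for all promoters. The sites of Insig1 and Dhcr7 lay 660 and 477 bp from the summit, and the median of the 6 was 78 bp. Overlapping windows of Scap share 1 site, so windows are not independent. By gene, 6 of 24 held an E-box (25%), against 8.09% of 27025. Among windows of genes with a series-wide end peak the E-box was in 36.8% of 19, against 10.2% of 7690, with the Scap site counted in each of its windows. E-boxes are bound by many factors, SREBP among them.

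The CCAAT box, which nuclear factor Y binds beside SREBP at many sterol genes, was in 65.6% of the windows, against 37.4%. The GC box GGGCGG was in 71.9%, against 35.7%. The windows of the synthesis genes also had more G and C, with a median of 61.8%, where all windows had 52.7%, and more CpG, with a median of 21 per window, where all had 7. The part of base composition in the motif shares was not tested.

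The C/EBP-ATF element TGATGNAA was in 9.38% of the windows, against 3.97%, which is 3 windows, of Insig2 and Idi1. Of its 3 matches 1 lay inside a peak, that of Insig2 printed above. The cyclic AMP response element TGACGTCA was in 3.13%, against 1.79%, in Elovl5 alone, and its core TGACG, which the full element contains, in 31.3%, against 20.8%. The sterol element TCACNCCAC, from the binding site of SREBP in the receptor gene for low-density lipoprotein, was in 3.13%, against 1.24%. Its single match, TCACCCCAC in Hmgcs1, lay 56 bp from the summit, and a core TGACG in the same window lay 46 bp from it. A window without a match says only that these letters are not in its 300 bases.

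**Figure D5:**
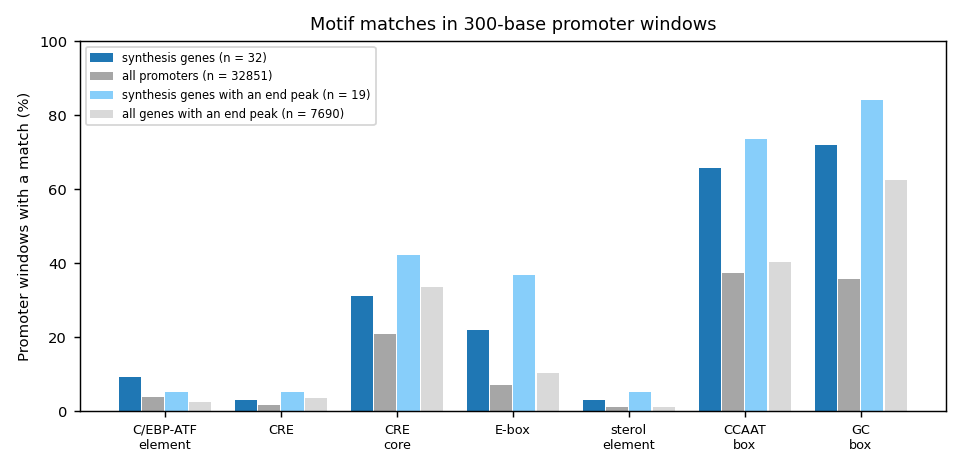
Percentage of 300-base promoter windows (y axis) with a match to each of 7 motifs (x axis, where CRE is the cyclic AMP response element), for the synthesis genes (dark blue), all promoters (dark grey), synthesis genes with a series-wide end peak (light blue) and all genes with such a peak (light grey). The E-box stands at 36.8% in light blue and 10.2% in light grey, and the C/EBP-ATF element and cyclic AMP response element are below 10% in all 4 groups.

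Related genes outside the 31 were counted from 3 lists. Of 10 further genes of SREBP processing and sterol sensing, 8 had a series-wide end peak, the highest being those of Nr1h2 (13.0 and 18.6) and Nr1h3 (16.0 and 14.6), which encode the liver X receptors that sense oxidised sterols. Of 13 further genes of sterol synthesis and transport, 8 had one. Npc2, which hands cholesterol out of lysosomes, had 63.5 and 59.0 (61.2 ± 3.22, SD, n = 2), above every peak of the 31 genes. Lbr, a lamin receptor that is also a sterol reductase acting at the same step as Tm7sf2, had 26.0 and 23.5 (24.7 ± 1.77, SD, n = 2). Of 22 further genes of fatty acid synthesis, 14 had an end peak. The highest in the series-wide list, by the larger of the replicate values, were Tecr, the reductase that completes each elongation cycle, with 24.0 and 28.8 (26.4 ± 3.40, SD, n = 2), and Acacb, the carboxylase isoform whose malonyl-CoA restrains fatty acid oxidation in muscle, with 22.0 and 13.7 (17.9 ± 5.84, SD, n = 2). By the mean of the replicates, Hacd3 (20.5 and 16.4) and Scd4 (19 and 17.7), named after their values were seen, stood above Acacb. The share of all genes is 34.9% here too.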

How the data were processed

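The submitters' processing notes name Bowtie2, MACS2, deepTools and mm10, without saying what each was used for or in which version. In the replicate lists as the authors deposited them, every peak has coordinates, a summit and a −log10 value, of either a p-value or a q-value, and the files do not settle which. The series-wide list, described as IDR merged, holds the deposited fold enrichment (a ratio) and the summit. Peaks with identical coordinates tied these values to folds (17420 in replicate 1 with 0 exceptions, 21053 in replicate 2 with 6), in steps of 0.500 and 0.443. Replicate folds were read from that relation, with the 4 and 5 lowest values continued by the step, and were not scaled between replicates. Replicate folds below 7.50, the lowest series-wide fold, are therefore continued and not tied. Values without a tie above these, 2 in replicate 1 (4 peaks) and 9 in replicate 2 (14 peaks), were interpolated. Series-wide folds are the authors' values, and replicate folds are inferred from them. Both serve to describe and rank peaks, and no interval for counting error can be given.

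Gene ends came from RefSeq models (GRCm38.p6), and strand and promoters from its promoter table. A peak counted for a gene where it touched the window by at least 1 bp, and the counting and the motif search were tested on simulated data. All 31 genes were accounted for, and the related genes named are the 2 of highest fold per list. The genes, lists and windows were chosen with earlier results of these data known. Python 3.11.15, NumPy 2.4.6 and pandas 2.3.3 were used. The inputs were not analysed here.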

Additional observations from a re-analysis of the deposited data

How the results depend on the processing

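With 2.5 or 5 kb around gene ends, the gene start alone, the summit in the window or peaks found in all lists, the count of 16 genes with an end peak ranged from 14 to 22, beside all genes at 26.2% to 47.4%. The 26.2%, for the gene start alone, is of all 21900 genes, and of the 17492 with a strand it was 32.9%. The list of each replicate alone, in place of the series-wide list, gave 21 to 22 genes at ends (48.2% to 50.2% of all genes). In the wide window it gave 27 to 28 (72.3% to 74.1% of all genes). Those lists hold more peaks, 78746 and 88812 against 41639, and reach lower folds, so these counts do not show the series-wide result with 1 replicate left out. Chosen after seeing the data, adding internal annotated starts gave 18, genes within reach of the replicate lists 15, and peaks at the ends of 1 gene only 13. The 20% of peaks with the highest fold left 1 gene at ends (5.66% of all genes) and 6 in the wide window (21.0%). With the upper 50% of peaks, 13 of the 31 genes had an end peak in both replicate lists (29.4% of all genes). With all peaks, 21 of the 31 had one (45.2% of all genes). The median fold of 14.1 (all genes 13.3) became 13.9 with the summit in the window (all genes 13.0), and 14.0 at the start alone (13.0) or with peaks in both replicates (13.3). It fell below that of all genes with 5 kb (13.9, all genes 14.5). The same held with the list of each replicate alone (9.75 to 9.75, all genes 10 to 10.2), which includes lower peaks. The order of these medians thus depends on the setting. All 7 motif shares among windows of genes with an end peak were above those of all genes with one. For the C/EBP-ATF element, the full cyclic AMP response element and the sterol element this was 1 of 19 windows each (5.26%). Those counts are too small to set the shares apart. The C/EBP-ATF window among the 19 was that of Idi1, whose match lay outside its peak. No paired analysis was possible because the inputs were not analysed here and 1 group was measured. Depth is unknown, so a gene without a peak is not shown to be unbound, and the folds are not set against input.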

Other observations

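Mir33, a microRNA known to lower cholesterol export, is encoded within Srebf2. Its hairpin at chr15:82198122-82198190 lay 11.4 kb from the 32.4-fold peak inside the gene, 9.34 kb from the 10.5-fold one and 7.96 kb from the peak behind the far end, and no peak of the series-wide list covered it.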
